A study of Homo sapiens with 8 samples.

Results

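The 10 enzymes described here build purine and pyrimidine nucleotides from small precursors. They were taken as the rows of the deposited table whose gene symbol is PPAT, GART, PFAS, PAICS, ADSL or ATIC (6 purine enzymes) or CAD, DHODH, UMPS or CTPS1 (4 pyrimidine enzymes). The choice rested on their place in the pathway and was made with earlier results of these data known. All 10 were found, each in a single row, among 16782 genes, and all 10 were among the 15593 genes tested. CAKI1 cells, a renal carcinoma line, were starved of serum for 24 h and then either left unstimulated (4 control samples) or given holo Lcn-2, the iron-loaded form of the transport protein lipocalin-2 (hLcn-2), at 5 µg/ml for 24 h (4 samples). Each group holds samples numbered 1 to 4. All samples are of this single line, and the labels do not say whether they came from separate cultures, so that p-values measure the spread between these samples.

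Purines are assembled step by step on ribose phosphate until the ring of IMP is closed, and IMP is then turned into AMP or GMP. Pyrimidines are made the other way around: the ring is built first, as orotate, and joined to ribose phosphate afterwards to give UMP, from which CTP is made. Both routes take nitrogen from glutamine and aspartate, and the purine route also takes carbon units from formyl-folate. In vertebrates several steps share 1 polypeptide, so that GART and CAD each catalyse 3 reactions, and growing cells rely on these routes for RNA, DNA and nucleotide cofactors.

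In these cells the synthesis enzymes showed no difference between hLcn-2 and control samples that passed the test. Limma without the replicate block called 0 of the 10 enzymes at an adjusted p under 0.05, against 0 of 15593 genes (0%). Of all genes, 355 had an unadjusted p of 0.05 or less in that fit, and edgeR and DESeq2 without the block called 0 as well. With the replicate number as a block, limma again called 0 of the 10, against 44 genes (0.282%), and edgeR (quasi-likelihood, blocked, on recovered reads) also called 0 of the 10, against 233 genes (1.49%). The numbers paired the samples, since those of the same number deviated together from their group means (mean correlation across genes 0.50). Without the block 0 of the 10 had an unadjusted p of 0.05 or less. With it 1 of the 10, CTPS1, did, beside 12.2% of all genes tested. The groups of 4 overlapped for all 10 enzymes, beside 1.88% of all genes tested without overlap. Of the 10, 0 was lower in all 4 pairs, beside 10.9% of all genes. Among only 10 genes, these counts of 0 do not set the enzymes apart from all genes. The median log2 fold change of the 10 was -0.067, beside 0.00083 for all genes tested, and 9 of the 10 values were below 0, as were 7769 of 15593 over all genes. Both depended on the samples kept. Without hLcn-2 sample 3 the median of the 10 was 0.050 and 3 of the 10 were below 0. With any other single sample left out the median lay between -0.16 and -0.020. Control 3 was low as well, and without both samples numbered 3 the median was -0.051 and 7 of the 10 were below 0.

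The libraries held between 1501563 and 13953090 reads after reads of the same molecule had been collapsed by their molecular identifier. Values are normalized counts in CPM of an adjusted library size (reads scaled to a common library total), and log2 fold changes are on the scale log2(normalized count + 1). Renal markers were present: PAX8, a transcription factor of kidney epithelium, averaged 226 ± 22.4 (SD, n = 4) in controls, and 8 of 10 renal epithelial and carcinoma markers were measured (KRT19 and CA9 were not analysed here). Of these 0 was called by limma with or without the block, and the smallest blocked p-values were those of the cadherin CDH2 (416 ± 75.7 in controls, SD, n = 4; adjusted p = 0.163), vimentin (VIM, adjusted p = 0.348) and the keratin KRT8 (adjusted p = 0.697). Of 10 markers of leukocytes, endothelium and fibroblasts, only COL1A1 and PDGFRB were measured here. Their summed normalized count lay between 3.70 and 6.58 in controls and between 2.47 and 5.78 after hLcn-2. The samples numbered 3 stood apart in both groups: the share of the mitochondrial ribosomal RNA RNR2 was 6.22% in control 3 and 7.10% in its hLcn-2 counterpart, against 3.31% to 4.37% in the other 6 libraries.

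**Figure D1:**
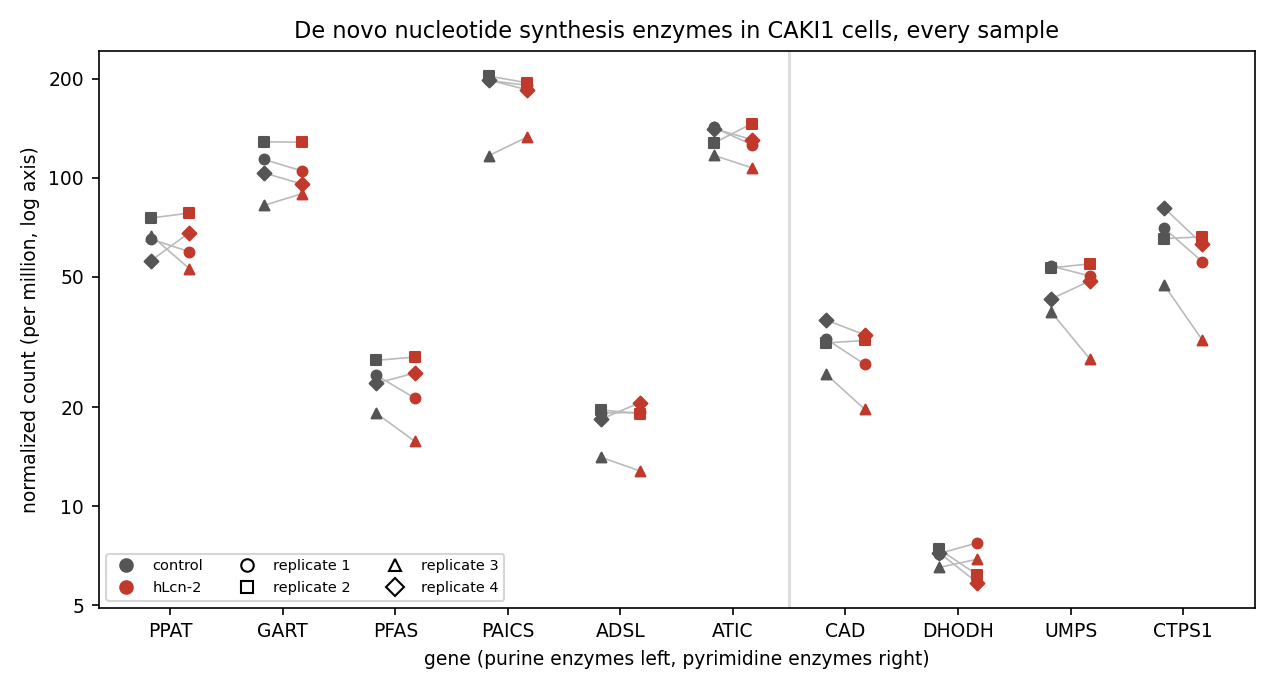
Normalized count (CPM, log axis) of each enzyme in all 8 samples, controls in grey and hLcn-2 in red, with the symbol shape giving the replicate number and lines joining same-numbered samples. The levels span from about 6.89 for DHODH to 177 for PAICS on average, the groups overlap for every enzyme, and replicate 3 (triangles) is the lowest sample in most columns.

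Transcript levels differed widely between steps of the same route. The kit counts transcript ends, so these values are not divided by transcript length. Averaged over all 8 samples, PAICS was the highest with a normalized count of 177, followed by ATIC (130) and GART (106), then PPAT (65.2), CTPS1 (60.0), UMPS (46.3), CAD (29.7), PFAS (23.4), ADSL (17.9) and DHODH (6.89). The upper ranks were not fully separated: PAICS exceeded ATIC in 7 of 8 samples, ATIC exceeded GART in 7 of 8, and PPAT exceeded CTPS1 in 6 of 8. Every other neighbour in this order was above the next in 8 of 8 samples. Only GART against PPAT and ADSL against DHODH also had ranges over the 8 samples that did not overlap.

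PPAT (ENSG00000128059, chr4:56393362-56435615 of GRCh38, minus strand) catalyses the committed step of purine synthesis, the transfer of glutamine nitrogen onto phosphoribosyl pyrophosphate. Its normalized counts in controls 1 to 4 were 65.0, 75.4, 66.6 and 56.0, and in hLcn-2 samples 1 to 4 they were 59.5, 78.0, 52.8 and 68.1. Higher and lower values were mixed in both groups, with 2 pairs higher and 2 lower in hLcn-2 samples. The log2 fold change of PPAT was -0.032 (standard error 0.16; unblocked limma, adjusted p = 0.9999).

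PAICS (ENSG00000128050, chr4:56435741-56464578, plus strand) carries out the carboxylation and the aspartate addition in the middle of the route. Its normalized counts were 197, 204, 117 and 198 in controls and 191, 194, 133 and 185 after hLcn-2. Replicate 3 was far below the other 3 samples in both groups, and the remaining values lay close together. The log2 fold change of PAICS was -0.0074 (standard error 0.20), and its sign depended on the scaling, as it was 0.0045 with TMM factors.

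PPAT and PAICS lie back to back on chromosome 4, and the 125 bases between their annotated starts are shown because a promoter lying there would be shared by the entry step and a later step of the same route. The stretch chr4:56435616-56435740 (plus strand, GRCh38, read from the RefSeq promoter table), with GC boxes (GGGCGG, either strand) in capitals, reads:
PPAT-PAICS: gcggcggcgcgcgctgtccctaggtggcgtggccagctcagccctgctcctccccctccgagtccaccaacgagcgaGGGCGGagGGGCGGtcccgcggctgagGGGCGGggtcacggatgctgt
It holds 3 GC boxes and is 76.0% G and C. Whether this stretch drives both genes was not tested. The ratio of the normalized count of PAICS to that of PPAT was not constant. It was 3.04, 2.70, 1.75 and 3.54 in controls 1 to 4 and 3.21, 2.49, 2.51 and 2.72 in hLcn-2 samples 1 to 4. The lowest ratio was that of control 3, where PAICS was at 0.584 times the mean of the other controls while PPAT was at 1.02 times theirs.

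The remaining purine enzymes showed overlapping groups. GART (ENSG00000159131, chr21:33503931-33543491, minus strand), which catalyses 3 steps and uses formyl-folate in one of them, had normalized counts of 114, 128, 82.3 and 103 in controls and 105, 128, 89.4 and 95.7 after hLcn-2. PFAS (ENSG00000178921, chr17:8247618-8270491, plus strand), a glutamine-dependent synthase between the GART steps, had 25.1, 27.8, 19.2 and 23.7 in controls and 21.4, 28.5, 15.8 and 25.4 after hLcn-2. In both genes replicate 3 was the lowest and replicate 2 the highest sample of either group. ADSL (ENSG00000239900, chr22:40346461-40390463, plus strand), the lyase used both on the way to IMP and from IMP to AMP, had 19.2, 19.7, 14.1 and 18.4 in controls and 19.3, 19.2, 12.8 and 20.7 after hLcn-2. ATIC (ENSG00000138363, chr2:215311956-215349773, plus strand), which adds the last carbon and closes the ring, had 142, 127, 117 and 141 in controls and 126, 146, 107 and 130 after hLcn-2. Here too replicate 3 was lowest in each group, and the order of the other samples changed between groups. The log2 fold changes were -0.028 for GART, -0.090 for PFAS, 0.00050 for ADSL and -0.053 for ATIC, all smaller than their standard errors of 0.13 to 0.21. The sign of the value for ADSL is without weight, as it was -0.029 when only column totals were used for scaling.

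CAD (ENSG00000084774, chr2:27217369-27243943, plus strand) joins the first 3 activities of pyrimidine synthesis. It stood at normalized counts of 32.3, 31.4, 25.2 and 36.9 in controls and 27.1, 32.0, 19.7 and 33.3 after hLcn-2. In 3 of the 4 pairs the hLcn-2 sample was the lower one, and the groups overlapped. The log2 fold change of CAD was -0.18 (standard error 0.20; adjusted p = 0.9999 in unblocked and 0.586 in blocked limma). Without hLcn-2 sample 3 it was -0.023, and without both samples numbered 3 it was -0.12.

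DHODH (ENSG00000102967, chr16:72008588-72027664, plus strand) oxidises dihydroorotate at the inner mitochondrial membrane and passes the electrons to ubiquinone; it is also known as a brake on lipid peroxidation and ferroptosis. Samples held normalized counts of 7.18, 7.43, 6.52 and 7.24 in controls and 7.75, 6.20, 6.91 and 5.87 after hLcn-2. The controls lay close together, and the hLcn-2 samples lay on both sides of them. The log2 fold change of DHODH was -0.080 (standard error 0.20). It was the least abundant of the 10, with between 11 and 102 reads a library. The 11 reads of the shallowest library have an exact 95% Poisson interval of 5.49 to 19.7, which covers counting error only.

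UMPS (ENSG00000114491, chr3:124730433-124749273, plus strand) turns orotate into UMP with 2 activities in a single chain. Its normalized counts were 53.8, 53.2, 39.0 and 42.8 in controls and 50.2, 54.7, 28.1 and 48.5 after hLcn-2. Replicate 3 was the lowest sample in both groups, and 2 pairs were higher and 2 lower. The log2 fold change of UMPS was -0.084 (standard error 0.21). Without hLcn-2 sample 3 it was 0.12, and without both samples numbered 3 it was 0.039.

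CTPS1 (ENSG00000171793, chr1:40979300-41012565, plus strand), which aminates UTP to CTP with glutamine, differed most between the groups. Its normalized counts were 70.2, 65.3, 47.2 and 81.0 in controls and 55.6, 66.1, 32.1 and 62.8 after hLcn-2. The groups overlapped, and hLcn-2 samples were lower in 3 of 4 pairs, with log2 differences of -0.33, 0.018, -0.54 and -0.36 in pairs 1 to 4. The log2 fold change was -0.30 (standard error 0.23, adjusted p = 0.9999) in unblocked limma. With the block its standard error was 0.11 and its unadjusted p 0.0130, but its adjusted p over all genes was 0.265, and edgeR with the same block gave 0.250. The log2 fold change of CTPS1 was -0.076 without hLcn-2 sample 3 and -0.45 without control 3, which was low as well. Without both samples numbered 3 it was -0.23. The paralog CTPS2, a CTP synthase as well, had 4.78 ± 1.51 normalized counts in unstimulated cells against 3.71 ± 1.61 with hLcn-2 (SD, n = 4 each), with an adjusted p of 0.624 in limma with the block.

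**Figure D2:**
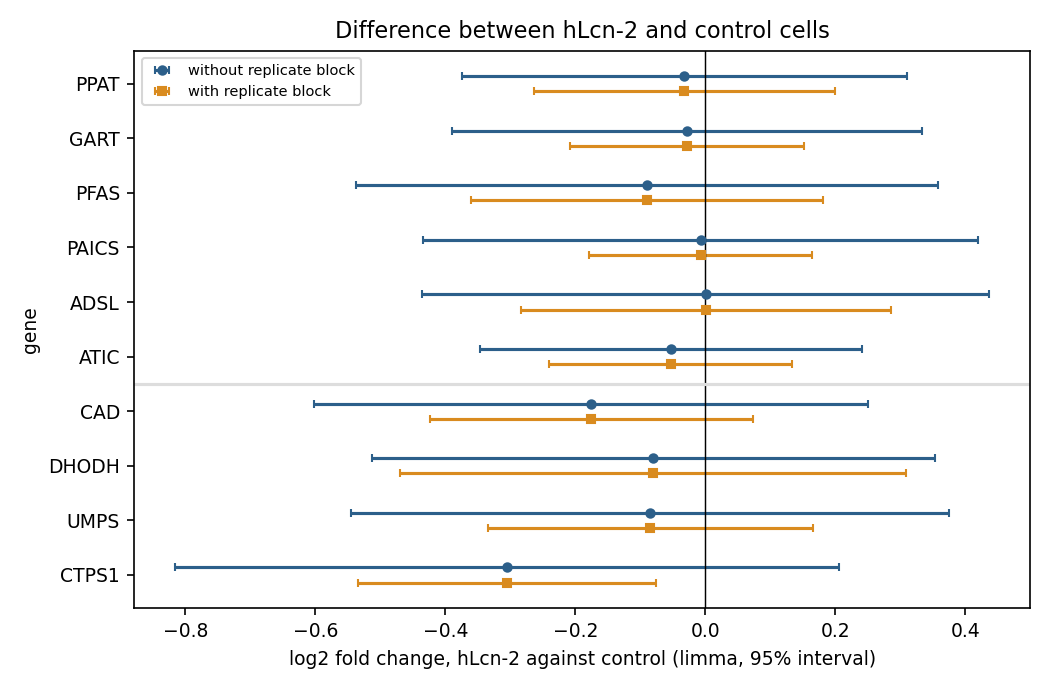
Log2 fold change of each enzyme (hLcn-2 against control, horizontal axis) with its 95% interval from limma, without the replicate block (blue circles) and with it (orange squares), purine enzymes above the line. Only the blocked interval of CTPS1, from -0.53 to -0.076, does not include 0, and its adjusted p of 0.265 did not pass the threshold.

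The intervals give the size of change that these samples leave possible. Without the block, the 95% intervals of the 10 log2 fold changes reached from -0.82 (CTPS1) to 0.44 (ADSL). With the block they reached from -0.53 (CTPS1) to 0.31 (DHODH), that is, from 0.691 to 1.24 times the control level. For PAICS the blocked interval was 0.883 to 1.12 times the control level, and for GART it was 0.866 to 1.11 times. A p above the threshold does not show that the levels were equal. Single enzymes were also compared by two-sided exact permutation tests over 4 samples against 4, with p between 0.371 (CTPS1 and DHODH) and 1 (ADSL). The exact test over signs of the 4 paired differences, which cannot give a p below 0.125, gave between 0.250 (CTPS1 and CAD) and 1 (PAICS and ADSL), with 0.500 for DHODH. Over the pairs, the median absolute log2 difference of the enzymes was 0.13, beside 0.22 for all genes tested, which were not matched to them in level. By mean level, the enzymes other than DHODH stood between percentile 52.5 (ADSL) and 92.9 (PAICS) of the genes tested.

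Within groups, the levels of the enzymes followed the replicate number. Control 3 was the lowest control for 9 of the 10 enzymes, against 29.9% of all genes tested, with PPAT as the exception. Sample 3 was the lowest hLcn-2 sample for 9 of the 10, against 35.8% of all genes, with DHODH as the exception. The median log2 deviation of the 10 from their group means was -0.29 in control 3 and -0.41 in hLcn-2 sample 3, where the median of all genes tested was 0.015 and -0.037. No such value was below 0 in the other 6 libraries, where the median deviation of the 10 lay between 0.041 and 0.25. The deviations of a gene sum to 0 within a group, so a low sample 3 by itself raises the others. The summed normalized count of the 10 enzymes was 534 in control 3 and 498 in hLcn-2 sample 3, and between 662 and 753 in the other 6 libraries.

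Summed levels of several other gene lists moved with these samples, those of cell division most in proportion. The summed normalized count of 11 proliferation genes, among them the cycling-cell marker MKI67 and the replicative helicase subunits MCM2 to MCM7, was 830 in control 3 and 738 in hLcn-2 sample 3, against 1797 to 2466 in the other 6. Other lists were lowest in these samples too: the 13 salvage genes summed to 413 and 424, against 532 to 612 in the other 6 libraries, the 10 genes of deoxynucleotide supply to 587 and 565, against 863 to 937, and the 8 renal markers to 2888 and 3203, against 3504 to 4091. The 7 listed regulators of nucleotide synthesis did not follow in controls, with 624 in control 3 and a control range of 595 to 639. In hLcn-2 sample 3 they summed to 616, the lowest of its group. ATF4 made up the largest part of these sums, with 356 in control 3. Of the listed regulators only E2F1 was lowest in the samples numbered 3 of both groups (6.17 in control 3 and 3.46 in hLcn-2 sample 3). Control 3 held 5799151 reads and hLcn-2 sample 3 2088266, where the other controls held between 1501563 and 13953090 and the other hLcn-2 samples between 4619920 and 11341137. The part of cell division, of depth and of the RNR2 share in the low values of replicate 3 was not tested. Without both samples numbered 3 and without the block, limma called 0 of the 10 enzymes, but also 0 of all 15156 genes tested. The median log2 fold change of the 10 was then -0.051.

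**Figure D3:**
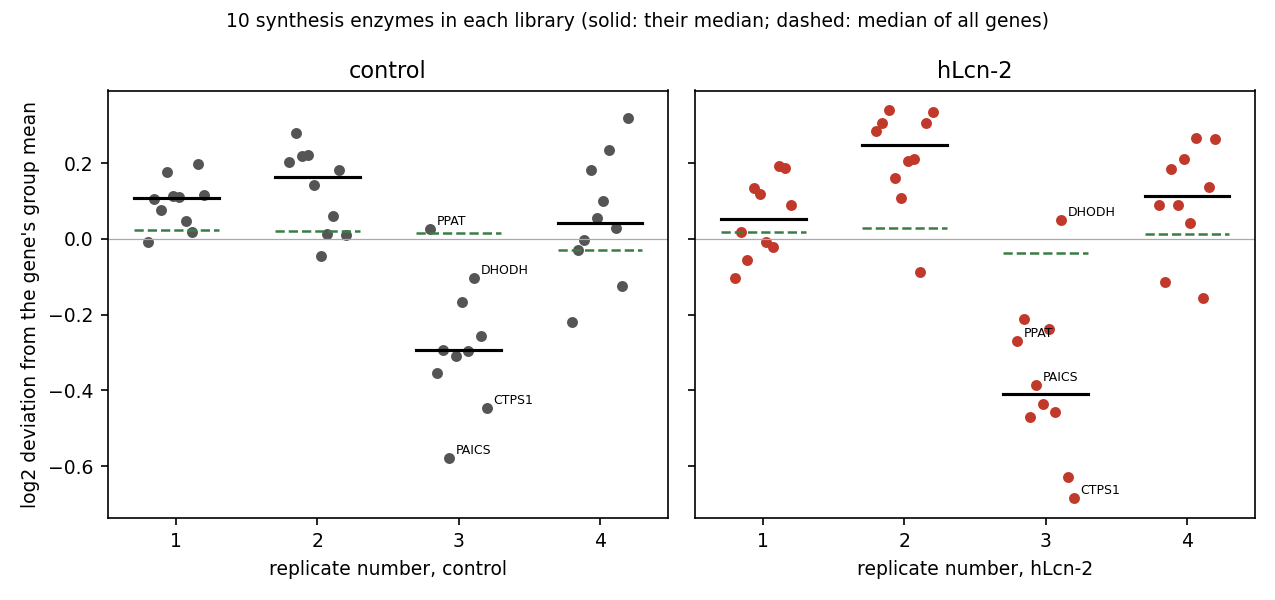
Log2 deviation of each of the 10 enzymes from its own group mean (vertical axis) in replicates 1 to 4 of the controls (left) and of the hLcn-2 samples (right), with the median of the 10 as a solid line and that of all genes tested as a dashed line. The enzymes sit low in replicate 3 of both groups (medians -0.29 and -0.41) while the median of all genes stays near 0.

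Each arm was also summed. The 6 purine enzymes together had a normalized count of 525 ± 75.0 in unstimulated cells against 513 ± 75.9 with hLcn-2 (SD, n = 4 each), a log2 difference of -0.035 and less than the spread between replicates. The 4 pyrimidine enzymes summed to 152 ± 22.9 in unstimulated cells against 134 ± 32.4 with hLcn-2 (SD, n = 4 each). This difference was smaller than the SD of either group, a spread that ignores the pairing. The log2 difference of the pyrimidine sums was -0.20, and CTPS1 made up the largest part of the sum. Both sums were lower after hLcn-2 in 3 of 4 pairs, with pair 2 as the exception.

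Short motifs were searched on both strands of the RefSeq promoter windows, each of 250 bases before to 50 after a start (GRCh38.p14), which were found for 9 of the 10 enzymes (not for ADSL). The E-box CACGTG, a site for MYC with MAX and for related factors, was in 4 of the 14 windows of these 9 enzymes, 1 each of PPAT, PAICS, ATIC and DHODH, and in 7.26% of all 35116 windows. PPAT and PAICS share the same E-box, which lies 182 bases before the start of PPAT and 40 bases after that of PAICS. The matches are shown because MYC is a known regulator of nucleotide synthesis genes, with the E-box in capitals:
PPAT, chr4:56435782-56435807 (minus strand): cggagatttcCACGTGcagcaaatac
ATIC, chr2:215312003-215312028 (plus strand): gccggcgggcCACGTGataagcccgg
ATIC, chr2:215312078-215312103 (plus strand): cctacctgcgCACGTGgtgccgccgc
DHODH, chr16:72008575-72008600 (plus strand): cgctactgcgCACGTGcacccaacca
The response element of C/EBP and ATF factors, searched as TGATGNAA, was in 0 of the 14 windows and in 3.62% of all windows. The core of the antioxidant response element, searched as TGACNNNGC, was in 2 of the 14, those of PPAT and PAICS and at the same bases, and in 13.3% of all windows. The GC box GGGCGG was in 9 of the 14 and in 45.0% of all windows. Such a match is a stretch of letters and not an occupied site.

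The genes around these routes were taken from lists chosen with results of these data known. Of 10 genes that supply phosphoribosyl pyrophosphate or turn IMP into AMP and GMP and UTP into CTP, limma called 0 with or without the block, and blocked edgeR called 1, IMPDH2. IMPDH2 makes the limiting step from IMP towards GMP. Its normalized counts were 32.2, 39.2, 35.4 and 25.02 in controls and 51.6, 47.3, 45.4 and 40.7 after hLcn-2. The lowest hLcn-2 value exceeded the highest control, with a log2 fold change of 0.49 (standard error 0.17). Its adjusted p was 0.0925 in blocked limma and 0.0296 in blocked edgeR, but 0.0503 in blocked DESeq2, and unblocked limma gave 0.9999.

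The other genes of these steps did not pass any of these tests. GMPS, which completes GMP, had 48.8 ± 5.97 normalized counts in unstimulated cells against 45.3 ± 4.96 with hLcn-2 (SD, n = 4 each). The phosphoribosyl pyrophosphate synthetase PRPS1 had a log2 fold change of -0.37 and was lower in 4 of 4 pairs (adjusted p = 0.204 in limma with the block), and PRPS2 had one of -0.20. PRPSAP2, a partner of these synthetases, differed by 0.25 on the log2 scale, upward in each pair (blocked adjusted p = 0.388). The median log2 fold change of the list was -0.048.

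Of 13 salvage genes, which recover bases and nucleosides, 0 was called in any of the 3 fits, and their median log2 fold change was -0.040. The smallest blocked p-values were those of thymidine kinase TK1 (log2 fold change -0.37, adjusted p = 0.230), the uridine-cytidine kinase UCK1 (-0.37, adjusted p = 0.339) and adenosine deaminase ADA (0.37, adjusted p = 0.386), all from limma with the block.

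Among 10 genes of deoxynucleotide supply, 1 was called with the block in limma and in edgeR, and 0 without it. That gene, RRM2, the small subunit of ribonucleotide reductase, fell in blocked limma (adjusted p = 0.0317, and 0.9999 unblocked). It is among the genes that the study chose from these samples, so its call is not independent evidence. Its normalized counts were 103, 112, 35.4 and 120 in controls and 67.2, 81.8, 20.7 and 83.7 after hLcn-2, lower in each of the 4 pairs. CMPK1, which phosphorylates UMP and CMP, had a log2 fold change of 0.23 (adjusted p = 0.286 with the block), and thymidylate kinase DTYMK one of -0.26 (adjusted p = 0.408). The large subunit RRM1 had 156 ± 21.8 in unstimulated cells against 182 ± 55.4 with hLcn-2 (SD, n = 4 each).

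The folate genes, which supply the carbon used by GART and ATIC, included genes that passed the blocked tests. Of 10 listed genes 8 were tested (ALDH1L1 and MTHFS were not analysed here). With the block 2 of the 8 rose in limma and in edgeR, MTHFD2 and SHMT2, both mitochondrial enzymes that the study had chosen from these samples, and without it 0 was called. MTHFD2 had normalized counts of 177, 231, 161 and 187 in controls and 333, 398, 210 and 282 after hLcn-2, which is 0.67 on the log2 scale (adjusted p = 0.9999 in unblocked and 0.0174 in blocked limma). SHMT2 had 60.7 ± 14.9 in unstimulated cells against 96.6 ± 22.5 with hLcn-2 (SD, n = 4 each), which is 0.66 on the log2 scale (adjusted p = 0.9999 unblocked and 0.0227 blocked). MTHFD1L, which releases formate from mitochondria, differed by 0.26 on the log2 scale, upward in each pair (blocked adjusted p = 0.311). The cytosolic enzyme MTHFD1, which turns formate into the formyl-folate used in purine synthesis, averaged 74.7 ± 15.4 in unstimulated cells against 69.4 ± 15.1 with hLcn-2 (SD, n = 4 each), within the spread between replicates.

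Of the 11 proliferation genes, all had log2 fold changes below 0 (median -0.23), and 8 were lower in all 4 pairs. Only MKI67 fell past the threshold, with the block (log2 fold change -0.51, adjusted p = 0.0373 in limma and 0.00792 in edgeR), and 0 was called without it. MCM6 and MCM3 had log2 fold changes of -0.41 and -0.33 (adjusted p = 0.158 and 0.216 in limma with the block).

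**Figure D4:**
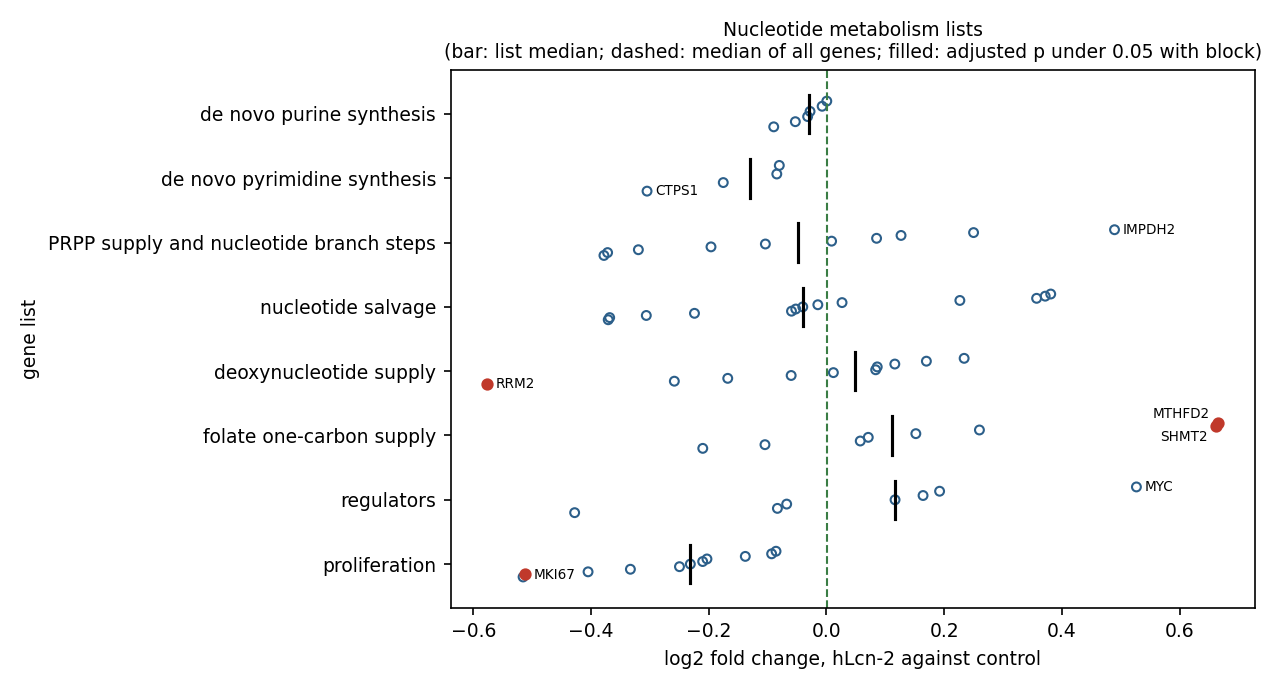
Log2 fold change (hLcn-2 against control, limma) of the genes tested in each list, 1 point a gene, with list medians as black bars and the median of all genes tested as a dashed line. Filled red points have an adjusted p under 0.05 with the replicate block (RRM2, MTHFD2, SHMT2 and MKI67), and the 10 synthesis enzymes in the top 2 rows lie between -0.30 and 0.00050.

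Annotation sets some limits on single values. A second annotated protein-coding gene, ENSG00000284431, overlaps ADSL on the same strand, its last exon included, so reads there cannot be assigned to a single gene with certainty. For PPAT 2 pseudogenes are named in the annotation and for PAICS 7, whose sequences can share reads with the parent genes.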

How the data were processed

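The deposited values are a signal per gene, normalized counts in CPM of an adjusted library size, which the authors made from QuantSeq 3′ reads with molecular identifiers, aligned to GRCh38 with STAR, collapsed by identifier and counted with HTSeq. The versions, the annotation and the strand setting are not given in the sources used here. All 134256 values (100%) were whole multiples, within 0.1 read, of the worth of 1 read in their column, so reads were recovered. One cell with a decimal comma was read as a decimal point.

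Limma 3.58.1 in R 4.3.3 was run with an intensity trend on log2(normalized count + 1), 4 against 4, for genes that reached 1 CPM in 2 or more libraries, with Benjamini-Hochberg adjustment over all 15593 genes. Same-numbered samples correlated in their deviations by 0.31 to 0.61 across genes, so the replicate number was taken as a pairing, and the block was an alternative, as were the quasi-likelihood test of edgeR 4.0.16 and DESeq2 1.42.0 on recovered reads, other scalings, filters and pseudocounts, and samples left out. The fits were tested on simulated data. The members, lists and motifs were chosen with earlier results of these data known. Named were all 10 members, and of each list the genes with an adjusted p under 0.05 and up to 3 with the smallest blocked p, with neighbours in the pathway. PAX8 was named as an identity check. RRM1 and MTHFD1 were named after their values were seen. Promoter windows are from RefSeq, and gene positions from GENCODE 44, both on GRCh38.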

Additional observations from a re-analysis of the deposited data

Results flagged for a closer look

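PAICS in replicate 3 lay far below the other samples of its group, in both groups. Relative to the range of its 4 values, the distance to the next one was 0.929 in control 3 (normalized count 117) and 0.850 in hLcn-2 sample 3 (133). Among the 20 groups of 4 samples examined for the 10 enzymes, 2 had such a sample, where 1 is expected by chance. The groups are not independent, as the enzymes were measured in the same libraries, so this comparison carries little weight.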

How the results depend on the processing

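Of the 10 enzymes 0 was called under all 31 alternatives run. In 20 of these 31, as in the main fit, 0 of all genes were called, so a count of 0 there says nothing about the enzymes. The median log2 fold change of the 10 was between -0.096 and -0.037 with all samples and between -0.16 and 0.050 with single samples left out, where only leaving out hLcn-2 sample 3 gave a value above 0.

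The number of genes called depended on the replicate block. It was 0 in limma without the block (355 genes at an unadjusted p of 0.05 or less) and 44 with it, 233 in edgeR and 173 in DESeq2 with it. With the block it was 8 and 45 with pseudocounts 0.1 and 5, 43 with median-ratio factors, 36 with column totals and 66 with TMM, and with the block and pairs 1, 2 or 4 left out 13, 3 and 54, and 0 without pair 3. The combinations of the block with another change, and the fit without both samples numbered 3, were chosen after seeing the data.

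Signs changed for values near 0, and none of these values was called. Leaving out single samples gave ranges of -0.13 to 0.058 for PPAT, -0.15 to 0.066 for GART, -0.20 to 0.067 for PFAS, -0.20 to 0.12 for PAICS, -0.10 to 0.15 for ADSL, -0.12 to 0.027 for ATIC and -0.19 to 0.12 for UMPS. Without pair 3 PPAT had 0.067 and UMPS 0.039, with the block or without it. PAICS had 0.0045 with TMM, with the block or without it. ADSL had -0.00013 with pseudocount 0.1 and -0.029 with column totals, each with the block or without it, and -0.0028 in DESeq2 with the block. With the block and pair 1 left out, GART had 0.0011, PAICS 0.0063 and ADSL -0.0017. PAICS had 0.013 without pair 2 and 0.023 without pair 4, and ADSL -0.051 without pair 4. CAD, DHODH and CTPS1 were below 0 under each alternative run. Their ranges with single samples left out were -0.27 to -0.023, -0.14 to -0.029 and -0.45 to -0.076. The cause of these changes was not tested. DHODH had no value under the filter on a mean of at least 10. Depth limits DHODH most, with as few as 11 reads.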

Other observations

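Regulators that are known to act on nucleotide synthesis were listed as well, and 0 of 7 was called in limma without or with the block, or in edgeR with the block. MYC had normalized counts of 38.0, 57.5, 29.8 and 14.5 in controls and 51.5, 60.2, 43.0 and 32.2 after hLcn-2, higher in 4 of 4 pairs with overlapping groups (log2 fold change 0.53, adjusted p = 0.154 in limma with the block). E2F1, which acts at the start of DNA replication, was lower in 4 of 4 pairs (log2 fold change -0.43, adjusted p = 0.356 with the block). ATF4, the transcription factor of the integrated stress response, averaged 350 ± 33.9 in unstimulated cells against 405 ± 88.3 with hLcn-2 (SD, n = 4 each) (adjusted p = 0.410 with the block).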
